A study of Mus musculus with 6 samples.

Results

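The genes described here were listed at 0 FPKM (fragments scaled by exon length and by mapped reads) in all 3 polysomal (P) libraries of aged mouse oocytes and lay above 5 FPKM in all 3 non-polysomal (NP) libraries. Of the 25965 genes in the table, 4062 were above 5 FPKM in every NP library, and 3692 of these remained once gene models named Gm with a number, numbered zinc fingers and the Kif, Rpl, Rps, Mrp, Psm and Eif families had been left out by name. Among these 3692 eligible genes, 22 (0.596%) were at 0 in every P library. Before names were considered 29 genes had passed, and all 7 that were then left out were Gm gene models. The P and NP values chose these genes, so their gap between the fractions is given as a description and was not tested. Storage of an mRNA was not measured either, so the genes are called off-polysome genes after the values that chose them. The name stands for the listed zeros and does not mean that the mRNA was shown to be absent from polysomes.

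Each library came from 200 oocytes that had passed nuclear envelope breakdown (NEBD), and 3 replicates of each fraction were analysed. According to the sample labels the oocytes were taken from CD1 mice aged 58 weeks after priming with pregnant mare serum gonadotropin. The methods of the study use the name ICR and give another age, in months, and the labels are followed here. All samples shared 180 min of culture without the meiotic inhibitor IBMX, then 10 min in 0.1 mg/ml cycloheximide, a drug that holds ribosomes on the mRNA, and a 10% to 50% sucrose gradient whose 10 fractions were pooled into NP and P. Neither genotype nor transgene separates the samples, the oocytes of each sample were pooled, and libraries of young females were not analysed here.

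An mRNA that is being translated by several ribosomes at once sediments as a polysome, whereas free mRNA and mRNA with a lone ribosome stay in the lighter NP fractions. Transcription stops before the oocyte resumes meiosis, so the proteins it makes then come from mRNAs deposited during growth, many of which are held with short poly(A) tails until they are recruited to ribosomes. Recruitment in maturing oocytes is best known for mRNAs with a cytoplasmic polyadenylation element (CPE), U-rich letters near the polyadenylation hexamer at the end of the 3′ UTR.

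The ends of the 3′ UTRs are shown first, since these letters are where such control is read. A polyadenylation hexamer, AATAAA or ATTAAA, lay in the last 50 bases of the annotated 3′ UTR in 8 of the 20 off-polysome genes with a complete coding transcript. Each is printed 5′ to 3′ on the strand of the mRNA from GRCm38, with the hexamer in capitals.
Dctpp1 (chr7:127256964-127256993, minus strand): gttttctctctcAATAAAatgacttaaggc
Otud6b (chr4:14809513-14809542, minus strand): gtttaccaagagAATAAAtgataaaggagt
Gtdc2 (chr9:121981614-121981643, minus strand): tttggagcagtcATTAAAtgattatgaaca
Nmnat1 (chr4:149468611-149468640, minus strand): ttaaataagaccATTAAAaaaaaggatgta
6820408C15Rik (chr2:152444298-152444327, plus strand): ttccttggtgccAATAAAgctgtgtttgtg
Tmem107 (chr11:69073263-69073292, plus strand): tgccgaatggagAATAAAatacttcaaacg
Atad2b (chr12:5047363-5047392, plus strand): gtgaaatacttgAATAAAgatgataagaag
Nsun5 (chr5:135376769-135376798, plus strand): gcttaaatacaaaAATAAAttttattttgt
The Atad2b stretch lies beyond the end that the deposited table gives for this gene.

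The same stretch of Nsun5 is shown again with the CPE letters in capitals, because Nsun5 was the 1 off-polysome gene with TTTTAT or TTTTAAT in the last 100 bases of its 3′ UTR in the transcript with the longest coding sequence. The CPE letters directly follow the hexamer without sharing a base and end 5 bases before the 3′ end.
Nsun5, CPE letters: gcttaaatacaaaaataaaTTTTATtttgt
Hist2h2aa2 is shown for the stem-loop in which replication-dependent histone mRNAs end in place of a poly(A) tail. It was found as a stem of 6 bases that begins with GG, a loop of 4 bases that begins with TT and the reverse complement of the stem, in the last 100 bases of the 3′ UTR. Its letters, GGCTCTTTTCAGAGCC, are in capitals, and the end of the stretch runs past the coordinates that the table gives for the gene.
Hist2h2aa2 (chr3:96239777-96239806, minus strand): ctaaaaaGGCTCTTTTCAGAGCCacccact
A match of letters is a description and not a site shown to be used.

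The CPE letters were too few among off-polysome genes to set their share apart from that of other eligible genes. They lay in the last 100 bases in 1 of 20 off-polysome genes (5%, exact 95% binomial interval 0.127% to 24.9%). In other eligible genes it was 638 of 3543 (18.0%), a share inside that interval. In the transcript with the longest 3′ UTR the count was 2 of 20 (10%), against 17.8% of the others. Anywhere in the 3′ UTR they were found in 7 of 20 (35%), namely Otud6b, 1700101E01Rik, Tmem107, Atad2b, Nsun5, Nsl1 and Wars2, against 52.9% of the others. The hexamer was in 8 of 20 (40%) against 77.1% of the others. Genes are not replicates and no test was made, and the off-polysome 3′ UTRs have a lower median length as annotated. Those of Cyb5d1 (26 bases), Dctpp1 (77 bases) and 4930522H14Rik (91 bases) are shorter than the 100 bases searched for the CPE letters. The histone stem-loop was in 1 of 20 off-polysome genes and 1 of 3583 others. Only the mRNA strand was searched, and the hexamer and the stem-loop were added once the genes were known.

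Depth bears on every zero in P. The table holds no read counts, but with the exon length known, low FPKM values fall on steps of 1 read, and the size of the steps gave back a depth of 1237799, 18096678 and 12131037 reads in NP replicates 1, 2 and 3. In P replicates 1, 2 and 3 it was 163822, 1141531 and 1549317 reads. The NP library was the deeper by 7.56, 15.9 and 7.83 times in the 3 replicates. Whether 1 step stands for a read or a read pair is not given in the sources used here. Of the oocyte markers, 19 of the 20 listed were in the table, and 18 or 19 of them were above 0 in every library, with summed levels of 15729 to 19730 FPKM in NP and 6530 to 19256 FPKM in P. Of 15 granulosa and cumulus cell markers, between 3 and 7 were above 0 in the NP libraries and 2 or 3 in the P libraries. Their summed level was 11.3 to 131 FPKM in NP and 1.54 to 16.5 FPKM in P, so it overlapped between the fractions. Most of it came from Cyp19a1, at 7.15, 22.5 and 104 FPKM in NP and 15.4, 0 and 0 FPKM in P, and Nr5a2, at 3.37, 6.32 and 26.9 FPKM in NP and 0, 5.71 and 1.18 FPKM in P. Star was at 8.80 FPKM in NP replicate 2 and at 0 elsewhere, Kitl reached 1.06 FPKM, and Foxl2, Fshr and Amh, which define these cells, were at 0 in all 6 libraries. The part of these cells in the off-polysome values was not tested. All 8 blood cell markers in the table were at 0.

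For each gene, the limit that the zeros allow is the FPKM worth of 3 reads over the 3 P libraries together, and the fold given below is the NP mean over that limit, a lower bound. These limits cover counting error only, since the libraries were amplified and carry no molecular identifiers. Levels and folds are on the linear FPKM scale. FPKM is scaled to the reads of each library, so a fold compares shares of libraries and not amounts of mRNA in the fractions. The genes are grouped below by what they are known for, for reading only.

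Enzymes of small-molecule metabolism ranged from the highest to the lowest minimum of the 22 genes. Dctpp1 (chromosome 7, 127256959 to 127260709, minus strand) encodes the dCTP pyrophosphatase that cleans up the nucleotide pool, and it was at 32.3, 65.1 and 50.4 FPKM in NP replicates 1, 2 and 3. Its NP mean of 49.3 ± 16.5 FPKM (SD, n = 3) was at least 31.7-fold above the P limit. Dctpp1 had the highest minimum of the 22 genes, being above 30 FPKM in every NP library. Gnmt (chromosome 17, 46725664 to 46729168, minus strand), the glycine N-methyltransferase that consumes S-adenosylmethionine, was at 91.1, 47.9 and 24.0 FPKM. The NP mean was at least 62.3-fold above the limit, and without replicate 1, the highest, it went from 54.3 to 35.9 FPKM. Nmnat1 (chromosome 4, 149467572 to 149485202, minus strand), the nuclear enzyme of NAD synthesis, stood lower at 25.8, 8.73 and 16.0 FPKM, with a bound of 48.7-fold. Dhrs11 (chromosome 11, 84820856 to 84828994, minus strand), a short-chain dehydrogenase/reductase, was near the threshold in every NP library, at 5.04, 8.10 and 5.97 FPKM. Its bound was 9.71-fold, and its value in NP replicate 1 rests on 10 reads.

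Dand5, Crtap and Gtdc2 act in or pass through the secretory pathway. Dand5 (chromosome 8, 84815405 to 84822823, minus strand) encodes a secreted antagonist of the growth factor Nodal, and its mRNA is known in the embryo for control after transcription. It was at 36.2, 32.8 and 28.2 FPKM in NP, a mean of 32.4 ± 4.04 (SD, n = 3), the tightest of the 22 genes with a ratio of 1.29 between the highest and lowest library. The bound was 48.8-fold, resting on 71, 940 and 541 NP reads against 0 in P. Crtap (chromosome 9, 114375134 to 114390675, minus strand), a subunit of the complex that 3-hydroxylates prolines of collagen, was at 44.7, 144 and 17.4 FPKM. It had the highest NP mean, 68.8 ± 66.8 FPKM (SD, n = 3), and the highest bound, 116-fold, but its replicates spread widely and without replicate 2 the mean was 31.0 FPKM. Gtdc2 (chromosome 9, 121981606 to 121996026, minus strand), now named Pomgnt2, extends the O-mannose glycan of dystroglycan. NP values were 11.3, 63.3 and 32.4 FPKM, again highest in replicate 2, with a bound of 80.3-fold and a mean that went from 35.6 to 21.8 FPKM without it.

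In ubiquitin and RNA biology there were 3 off-polysome genes. Otud6b (chromosome 4, 14809498 to 14826587, minus strand), a deubiquitinase of the OTU family, was at 16.7, 16.2 and 34.6 FPKM, with replicate 3 the highest and a bound of 72.5-fold. Nsun5 (chromosome 5, 135369953 to 135376805, plus strand) methylates a cytosine of the large ribosomal RNA. NP values of 6.43, 10.8 and 22.5 FPKM spread over more than 3-fold, the bound was 39.5-fold, and the mean went from 13.2 to 8.60 FPKM without replicate 3. Wars2 (chromosome 3, 99141068 to 99239186, plus strand) charges the tryptophan tRNA of mitochondria and had 23.5, 7.13 and 5.13 FPKM. Replicate 1 was the highest here, whereas replicate 3 was just above the threshold, and the bound was 67.4-fold. Without replicate 1 its mean went from 11.9 to 6.13 FPKM.

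Genes of chromosomes and DNA were 4 of the 22. Nsl1 (chromosome 1, 191063012 to 191084558, plus strand), a subunit of the Mis12 complex that joins the kinetochore to microtubules, was at 6.20, 11.8 and 8.52 FPKM with a bound of 28.5-fold. All 3 NP libraries were within 2-fold of each other. Obfc2b (chromosome 10, 128401395 to 128411492, minus strand), now Nabp2, binds single-stranded DNA in the SOSS complex at DNA breaks and was at 7.73, 6.37 and 74.8 FPKM. Its mean of 29.6 FPKM and its bound of 70.7-fold rest on replicate 3, which was 11.7 times the lowest library, the widest ratio of the 22 genes. Without that library the mean was 7.05 FPKM, and the bound from the lowest library was 15.2-fold. Atad2b (chromosome 12, 4917404 to 5044047, plus strand), a bromodomain ATPase, was at 6.72, 8.44 and 22.8 FPKM, with a bound of 56.4-fold that rests on an uncertain exon length and a mean that went from 12.6 to 7.58 FPKM without replicate 3. Hist2h2aa2 (chromosome 3, 96239785 to 96240323, minus strand) encodes a replication-dependent histone H2A and was at 10.5, 5.74 and 10.6 FPKM. It is the shortest of the genes and had the weakest bound, 4.58-fold, with only 7 reads in NP replicate 1.

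Another 4 genes are named for a cilium, the testis or a protein domain. Tmem107 (chromosome 11, 69070806 to 69073293, plus strand), a membrane protein of the ciliary transition zone, was at 7.67, 7.23 and 10.5 FPKM, with a bound of 11.0-fold. 1700101E01Rik (chromosome 2, 28955373 to 29055064, minus strand), now Cfap77, a cilia and flagella associated protein, was at 37.5, 45.8 and 7.94 FPKM. Replicate 3 stood well below the other two there, and the bound was 40.5-fold. 1700011F03Rik (chromosome 6, 70913087 to 70918927, minus strand), now the testis expressed gene Tex37, was at 14.9, 13.6 and 7.80 FPKM, with a bound of 9.36-fold. Cyb5d1 (chromosome 11, 69391925 to 69395631, minus strand), a cytochrome b5 domain protein, was at 6.04, 9.61 and 7.34 FPKM, close to the threshold throughout, with a bound of 11.7-fold.

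The remaining 4 genes carry clone or accession names and no role is given for them. AC132131.1 (plus strand of chromosome 10, 89873672 to 90683697) had 22.8, 74.6 and 16.0 FPKM, with a bound of 101-fold. Without replicate 2 its mean went from 37.8 to 19.4 FPKM, and the bound from the lowest library was 42.6-fold. It was the 1 gene without a GENCODE match, and it spans the locus of Anks1b, whose own value was 0, 0.566 and 0 FPKM in NP and 0, 0.599 and 0 FPKM in P. 6820408C15Rik (plus strand of chromosome 2, 152415587 to 152444330) had 8.59, 16.6 and 81.7 FPKM, so its mean of 35.6 FPKM rests largely on replicate 3 and was 12.6 FPKM without it. 4930522H14Rik (chromosome 4, 109505337 to 109531297, minus strand) was at 19.3, 15.5 and 7.70 FPKM, with a bound of 13.0-fold. E330010L02Rik (chromosome X, 25917944 to 25954696, minus strand), a long intergenic non-coding RNA, was at 6.69, 5.32 and 9.64 FPKM, with a bound of 6.63-fold. It has no annotated protein, whereas 20 of the other 21 genes are annotated as protein coding.

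**Figure D1:**
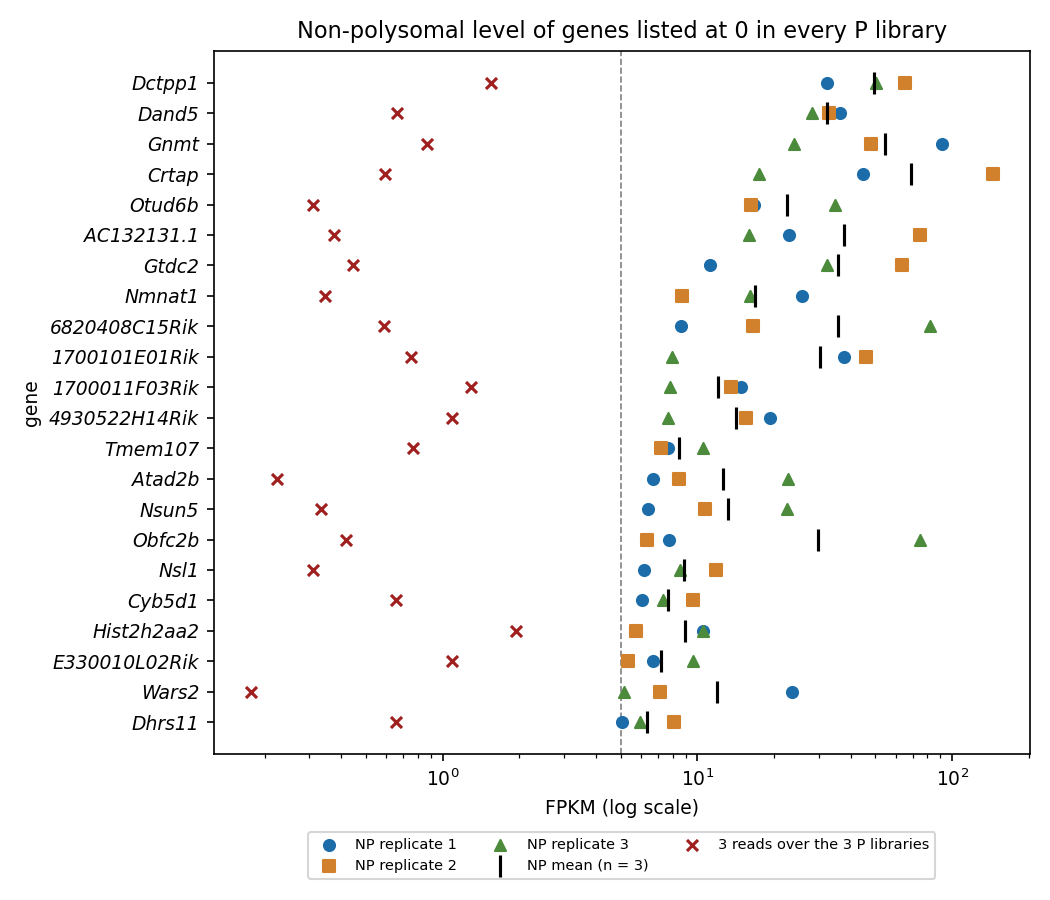
Level of each off-polysome gene in the 3 NP libraries (points, FPKM, log axis), with the mean of 3 libraries (black bar), the threshold of 5 FPKM (dashed line) and the FPKM worth of 3 reads over the 3 P libraries together (red cross). Genes run from the highest to the lowest minimum, from Dctpp1 to Dhrs11, and the crosses lie between 0.177 and 1.95 FPKM, left of all NP points.

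The off-polysome genes were mostly lower in NP than the other eligible genes, which are themselves the 14.2% of the table above 5 FPKM in every NP library. Their NP means ran from 6.37 to 68.8 FPKM with a median of 15.5, against a median of 48.1 for all 3692 eligible genes, which Crtap, Gnmt and Dctpp1 exceeded. Only 7 of 22 (31.8%) were above 10 FPKM in every NP library, namely Dctpp1, Dand5, Gnmt, Crtap, Otud6b, AC132131.1 and Gtdc2, compared with 76.1% of eligible genes. Above 20 FPKM in every NP library were Dctpp1, Dand5 and Gnmt (13.6% against 53.6%). The replicates of the off-polysome genes scattered much as those of other genes did: the median ratio of the highest to the lowest NP library was 2.73 against 2.66, and 8 of 22 (36.4%) had all 3 libraries within 2-fold against 31.1%. Replicates 1, 2 and 3 were the highest NP library for 6, 8 and 8 genes (27.3%, 36.4% and 36.4%), against 35.0%, 34.9% and 30.1% of eligible genes. They were the lowest for 36.4%, 27.3% and 36.4% of the off-polysome genes, against 27.1%, 21.2% and 51.7% of eligible genes. Without NP replicates 1, 2 and 3 the rule was met by 47, 36 and 79 genes, and without P replicates 1, 2 and 3 by 34, 159 and 44 genes, so membership depended most on P replicate 2 and, among the NP libraries, on replicate 3.

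The bound on the FPKM fold between NP and P had a median of 44.6 and a range of 4.58 to 116. Taken from the lowest NP library in place of the mean, its median was 19.6 and its range 2.94 to 52.2. From the mean it was at least 5-fold in 21 of 22 genes, all but Hist2h2aa2, at least 10-fold in 18 and at least 20-fold in 15. At a P level equal to the NP mean, the 3 P libraries together would have held between 13.7 reads (Hist2h2aa2) and 348 reads (Crtap), with a median of 134. P replicate 1 gave little of this: for 7 of 22 genes fewer than 3 reads would have been there, so its zero carries almost no information for 1700011F03Rik, 4930522H14Rik, Tmem107, Cyb5d1, Hist2h2aa2, E330010L02Rik and Dhrs11. In P replicates 2 and 3 no gene was below 3 reads by this reckoning, and the lowest were 5.49 and 7.46 reads, for Hist2h2aa2. Under counting error alone, the zeros put the level below the limit, and they do not show the absence of the mRNA from polysomes. Zeros also fell where over 100 reads would have been had at the mean of NP replicates 1 and 2, both above 5 FPKM. In P replicate 3 this was so for 12.2% of 4031 such genes that were above 0 in P replicate 1 or 2.

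**Figure D2:**
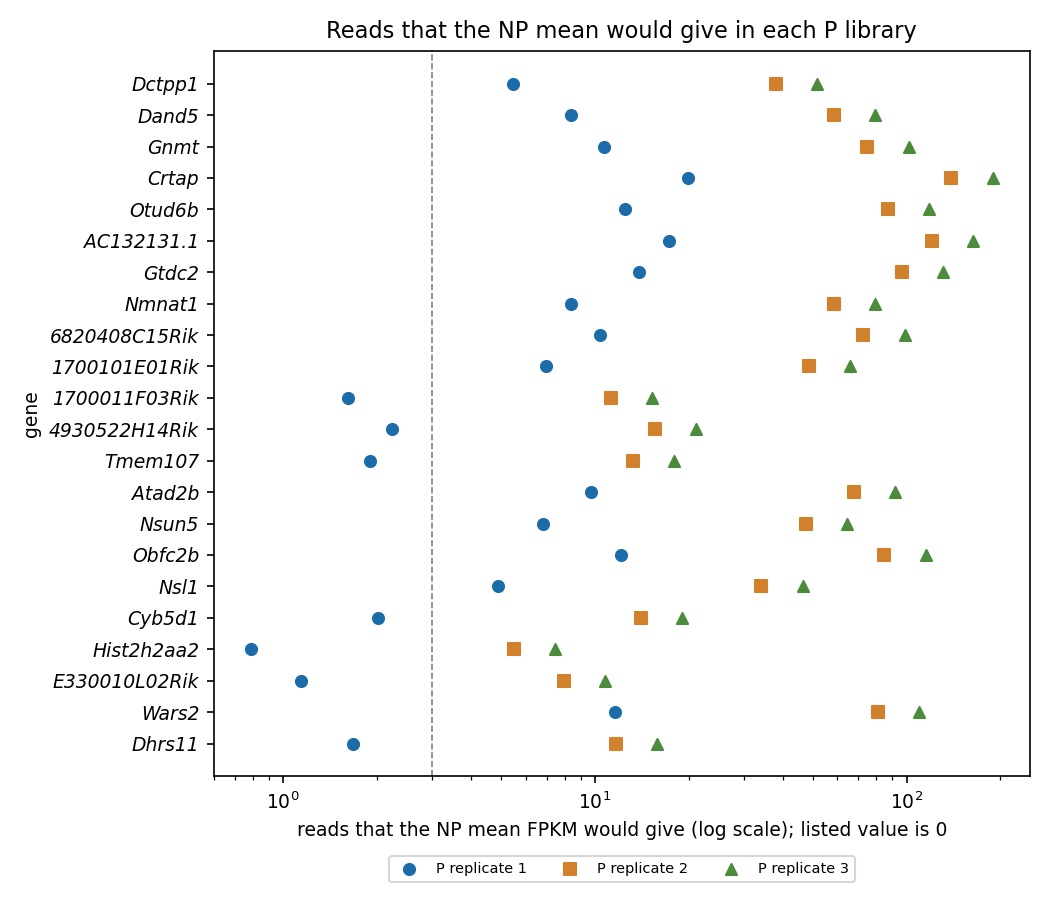
Reads that each off-polysome gene would have had in each P library if its P level equalled its NP mean (log axis), where the listed value is 0; the dashed line marks 3 reads. P replicate 1 falls left of the line for 7 of 22 genes, and P replicates 2 and 3 lie right of it for all 22.

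Genes just inside and just outside the rule differed by little. Just inside on the NP side were Dhrs11, Wars2 and E330010L02Rik, with minima of 5.04, 5.13 and 5.32 FPKM. Just outside were Pglyrp1, Gng13 and Fez2, also at 0 in every P library, with minima of 4.79, 4.69 and 4.24 FPKM. On the P side, Ccdc123 was kept out by 0.127 FPKM in P replicate 3 and Myo1d by 0.136 FPKM in P replicate 2, which is 1 read in each case. Abcc4 was kept out by 0.153 FPKM in P replicate 2, about 1.12 reads at the length used. Myo1d, an unconventional myosin, was at 44.6, 33.2 and 72.2 FPKM in NP, higher than most genes that passed.

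A zero in a given P library was more common than a zero in all 3. Of the 3692 eligible genes, 14.1% were at 0 in P replicate 1, 1.95% in replicate 2 and 11.6% in replicate 3, although replicate 3 was the deepest of the P libraries. In all, 2886 (78.2%) were above 0 in every P library, 613 (16.6%) in 2, and 171 (4.63%) in 1. The share at 0 in every P library fell with the NP level, from 6 of 141 genes (4.26%) at a mean of 5 to 10 FPKM, through 1.07% at 10 to 20 FPKM and 0.674% at 20 to 50 FPKM, to 2 of 1803 (0.111%) above 50 FPKM. Those last 2 genes were Gnmt and Crtap. Level and depth move together with membership here, and their part in it was not tested.

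**Figure D3:**
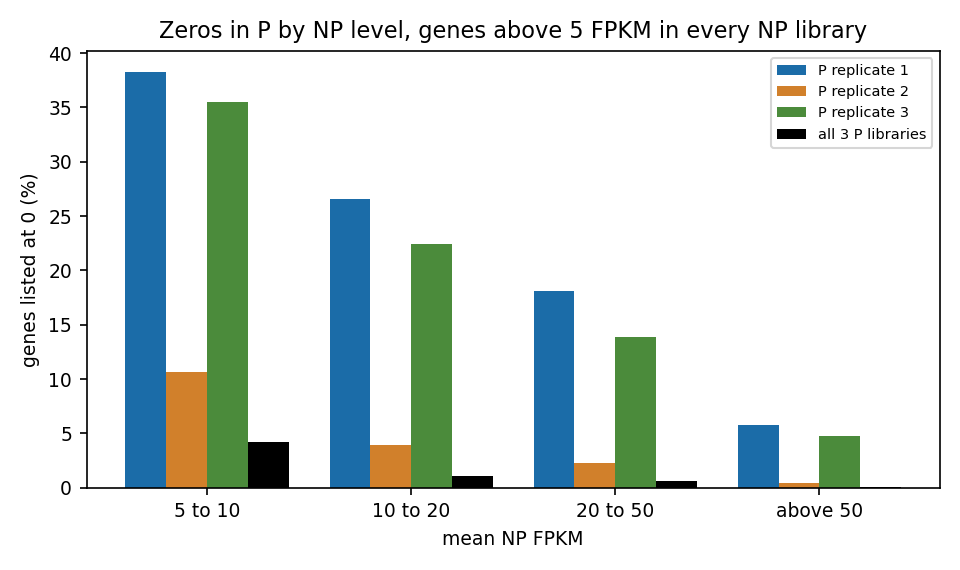
Share of the 3692 eligible genes listed at 0 (%) by mean NP level, for each P library and for all 3 together. The share at 0 in all 3 P libraries runs from 4.26% at 5 to 10 FPKM to 0.111% above 50 FPKM.

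The P library of a replicate that was left out of the choice can be read separately. Genes were chosen by the same rule on 2 replicates, and the third P library was then read. Among all genes above 5 FPKM in the other NP libraries, 16.5%, 2.44% and 17.9% were at 0 in P replicates 1, 2 and 3. When replicate 1 was left out, 47 of 67 chosen genes (70.1%, exact 95% interval 57.7% to 80.7%) were also at 0 in P replicate 1, against 15.6% of the genes that were also above 5 FPKM in the other NP libraries but not chosen. For replicate 2 it was 36 of 201 (17.9%, interval 12.9% to 23.9%) against 1.59%, and for replicate 3 it was 79 of 125 (63.2%, interval 54.1% to 71.6%) against 16.8%. All 22 off-polysome genes are among the chosen genes each time and are at 0 there by the rule, so these shares are no support for them. The genes compared were not matched in level or length. The intervals count genes and not samples, and 1 library against another allows no test.

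Chosen genes also differed in level and length, which set how many reads they can yield. Their median level in the other NP libraries was 14.7, 18.9 and 12.6 FPKM for replicates 1, 2 and 3 left out, against 43.6, 45.4 and 33.6 FPKM for genes not chosen. The median exon length was 2004, 2998 and 2060 bases against 4135, 4163 and 4380. Split by the reads a gene would have had in the left-out library, chosen genes were at 0 in 17.2% of 87 against 3.50% at 30 to 100 reads in P replicate 2, and in 58.3% of 24 against 12.2% above 100 reads in P replicate 3. Up to 10 reads in P replicate 2 the order was the opposite, with 2 of 4 against 4 of 7. These bins were set after the values had been seen, several hold few chosen genes, and the part of level, length and depth in the recurring zeros was not tested.

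Where a chosen gene was detected in the left-out P library, it was not always low there. With replicate 1 left out, 20 of the 67 chosen genes were above 0 in P replicate 1, and 13 of them were higher than in NP of the same replicate. Where above 0, chosen genes had a median of 12.9, 4.82 and 2.90 FPKM in left-out P replicates 1, 2 and 3. For genes not chosen it was higher each time, at 24.3, 18.6 and 12.5 FPKM. With replicates 2 and 3 left out, 27 of 201 and 20 of 125 chosen genes were higher in P than in NP of that replicate. The share higher in P was 19.4%, 13.4% and 16% of chosen genes and 19.4%, 12.4% and 33.3% of genes not chosen. The NP level did not always recur either: 34 of 67 (50.7%), 159 of 201 (79.1%) and 44 of 125 (35.2%) chosen genes were above 5 FPKM in the left-out NP library, against 94.6%, 96.7% and 70.5% of the genes not chosen.

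**Figure D4:**
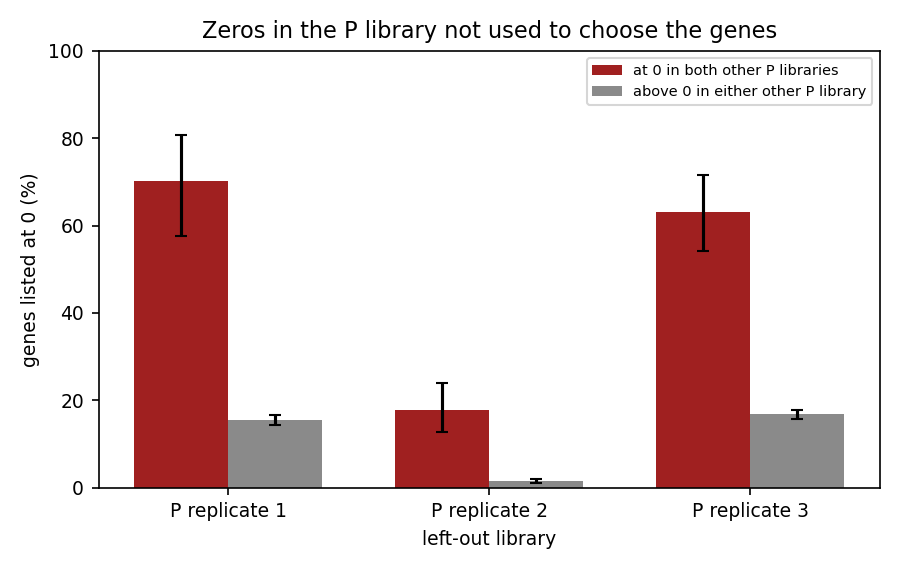
Share of genes listed at 0 (%) in the P library that was left out of the choice, for genes at 0 in both other P libraries (red) and for genes above 0 in either (grey), all above 5 FPKM in the other NP libraries; bars start at 0 and error bars are exact 95% binomial intervals over genes. The red bars stand at 70.1%, 17.9% and 63.2% and the grey bars at 15.6%, 1.59% and 16.8%.

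The median transcript of the off-polysome genes was shorter than that of other eligible genes, though not every member was short, and the difference was not tested. For the 20 with a complete coding transcript in GENCODE M21 the median transcript length was 1481 bases (range 528 to 8035) against 2706 for 3583 other eligible genes, and 14 of 20 (70%) were under 2 kb against 32.8%. Atad2b (8035 bases), Nsl1 (4879), Wars2 (4410) and Otud6b (3257) were longer than the median of the others. The median of each part was lower, with a coding sequence of 849 bases against 1344, a 5′ UTR of 73 against 161 and a 3′ UTR of 378 against 811. The shortest 3′ UTRs were those of Cyb5d1 (26 bases), Dctpp1 (77 bases) and 4930522H14Rik (91 bases), and the longest were those of Nsl1 (4025), Atad2b (3347) and Wars2 (3296). The median number of exons was 6 against 10, while GC content did not stand apart, at 52.6% against 52.2%. A short gene yields fewer reads at the same FPKM and so reaches 0 more readily, so length, depth and the rule cannot be told apart here.

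**Figure D5:**
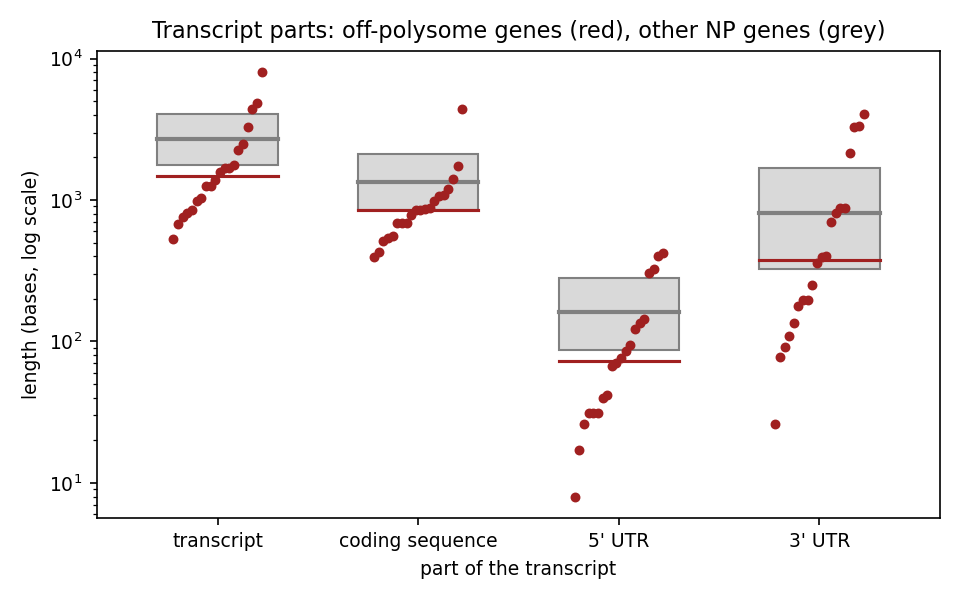
Length in bases (log axis) of the transcript and its parts for the 20 off-polysome genes with a coding transcript (red points, red line at the median) and for other eligible genes (grey box from the lower to the upper quartile, grey line at the median). The red medians, 1481, 849, 73 and 378 bases, lie below the grey medians of 2706, 1344, 161 and 811 bases.

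The off-polysome genes were looked up in 34 lists, most of them of functional groups. Of these lists, 6 held an off-polysome gene, 12 of the 22 were in a list and 10 in none. The lists of clone, RIKEN or accession names and of Tmem names go by name and not by function. The list of genes with clone, RIKEN or accession names held 6 of 238 eligible genes (2.52%), and tRNA synthetases and RNA modification held 2 of 40 (5%), Nsun5 and Wars2. Otud6b was 1 of 35 eligible genes for deubiquitination, Nsl1 1 of 71 for cell cycle and kinetochore, Hist2h2aa2 1 of 78 for chromatin and Tmem107 1 of 51 with a Tmem name. No off-polysome gene was among the 44 eligible genes of maternal mRNA storage and decay, the 17 mRNAs known for regulated translation in maturation, the 55 of the respiratory chain, the 121 of ubiquitin conjugation or the 77 protein kinases. The lists are incomplete, so that 10 genes in none says little: those for glycosylation and GPI anchors (32 eligible genes), for microtubules, centrosome and cilium (50), for amino acid, nucleotide and sugar metabolism (70) and for DNA replication and repair (62) counted no off-polysome gene, although Gtdc2, Tmem107, 1700101E01Rik, Dctpp1, Gnmt, Nmnat1 and Obfc2b have roles of these kinds. Counts this small cannot be read against the 0.596% of all eligible genes.

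Genes that act beside the off-polysome genes were looked up in P. Of 26 partners in the table, named after the values had been seen and not held to 5 FPKM in NP, 21 were above 0 in at least 1 P library and 9 in all 3. These shares are lower than among eligible genes, of which all but 0.596% were above 0 in at least 1 P library and 78.2% in all 3. In the Mis12 complex of Nsl1, Dsn1 was at 63.7, 65.8 and 108 FPKM in P, Pmf1 at 0, 1.77 and 5.21 FPKM, and Mis12 at 0, 3.79 and 0 FPKM. In the SOSS complex of Obfc2b, the scaffold Ints3 was at 54.7, 66.0 and 9.84 FPKM in P, and 1110054O05Rik at 0, 50.0 and 0 FPKM. The paralog Obfc2a was at 0 in every P library and at 2.57, 8.99 and 1.14 FPKM in NP. Both partners of Crtap were above 0 in every P library, the prolyl hydroxylase Lepre1 at 12.7, 1.14 and 4.36 FPKM and the isomerase Ppib at 82.7, 67.5 and 496 FPKM. All 4 enzymes or substrates of the O-mannose pathway beside Gtdc2 (Pomt1, Pomt2, B3galnt2 and Dag1) were above 0 in at least 2 P libraries. Of 10 transition zone genes beside Tmem107, 7 were above 0 in at least 1 P library, B9d1 and Tctn2 in all 3. Of 4 genes of NAD synthesis beside Nmnat1, 3 were above 0 in at least 1 P library and none in all 3. Since the off-polysome genes were chosen for their zeros, a difference from a partner with reads in P is fixed by the rule.

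For at least 7 of the 22 genes reads may be shared with another gene, and the strand setting of the counting is not given in the sources used here. Exons overlapped a gene on the other strand for Nsun5 (665 bases with Pom121), Obfc2b (153 bases with Ankrd52), Cyb5d1 (145 bases with Naa38) and Hist2h2aa2 (528 bases with Gm20632). Ankrd52 was at 6.54, 8.97 and 55.1 FPKM in P, Naa38 at 0, 22.6 and 10.2 FPKM, and Pom121 at 0, 2.51 and 0 FPKM, so these neighbours were detected in P while the off-polysome gene was not. Gm20632, opposite Hist2h2aa2, was at 2.33, 1.34 and 2.34 FPKM in NP and at 0 in every P library. Near-identical transcripts exist for Hist2h2aa2 (Hist2h2aa1 and Gm20634 at 100% identity), Cyb5d1 (Gm6685, 99.3%), E330010L02Rik (10 others), Otud6b (Gm12444) and Nmnat1 (200 bases of Zmynd8). Hist2h2aa1 and Gm6685 were also at 0 in every P library, whereas Gm20634 was at 1.48 FPKM in P replicate 2 and the related Hist1h2al was at 16.1, 0 and 8.54 FPKM in P. Among the copies of E330010L02Rik, Gm3669 was at 1.03 FPKM in P replicate 3, and Zmynd8, which shares a stretch with Nmnat1, was at 4.43, 3.81 and 5.50 FPKM in P. For these genes, Hist2h2aa2 above all, the zero is uncertain as to which copy it describes. Neither kind of overlap was found for the other genes, Dctpp1, Dand5, Gnmt, Crtap and Gtdc2 among them, except that it was not determined for AC132131.1, which has no GENCODE match and spans Anks1b on the same strand.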

How the data were processed

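Libraries were 3 NP and 3 P samples of oocyte RNA, sequenced after rRNA depletion and amplification of the whole transcriptome. Per the submitters' notes, trimming was with Trim Galore 0.4.1 and alignment to GRCm38 with HISAT2 2.0.5. The authors deposited FPKM per gene, made with SeqMonk, and a mean per fraction that was left aside. Annotation release, read filters and strand are not given in the sources here.

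The off-polysome genes and the gene lists were chosen with earlier results of these data known. All 22 genes are named, together with the 3 nearest on each side of each threshold. Depth was recovered from 4723 genes whose GENCODE M21 exon length is unambiguous, and between 98.7% and 99.6% of low values per library were whole reads within 0.02. In simulation, 6 of 6 depths were recovered. For 15 off-polysome genes the length was that of the joined exons, and for 7 (AC132131.1, Gtdc2, 1700101E01Rik, Atad2b, Nsun5, Nsl1 and Hist2h2aa2) it was the smallest length at which all 3 NP values were whole reads within 0.005. Multiples of it also give whole reads and would give a lower P limit, and for Atad2b further lengths do. UTRs, coding sequences and printed sequences come from the GENCODE M21 transcript with the longest coding sequence. Names were matched between older and current symbols with RefSeq tables, and similar transcripts were sought with BLAST 2.17.0 (at least 95% identity over 200 bases).

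No test was made, since the genes were chosen on P and NP themselves. Whether replicates came from separate animals is not stated. Alternatives were other thresholds, other limits on P, other transcripts, no names left out and each library left out. Partners, the hexamer, the stem-loop, bins of reads and 2 further alternatives were added after the values were seen. Analysis used Python 3.11.15 with pandas 2.3.3, numpy 2.4.6 and scipy 1.17.1.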

Additional observations from a re-analysis of the deposited data

How the results depend on the processing

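The number of off-polysome genes depended on the thresholds. Against 22 genes, it was 54 above 2 FPKM, 7 above 10 FPKM and 3 above 20 FPKM in every NP library, 256 when the NP mean alone had to exceed 5 FPKM, and 514 with any value above 0 in every NP library. Allowing up to 3 recovered reads over the P libraries gave 62. Leaving out 1 library at a time gave 34 to 159 genes, from 34 without P replicate 1 to 159 without P replicate 2, and it was 47, 36 and 79 without NP replicates 1, 2 and 3 and 44 without P replicate 3. With a mean P value up to 0.1 FPKM the count was 28, and 29 with no name left out. Without genes that share bases or a near-identical copy, or with at least 3 reads to be had in P replicate 1, it was 15 each (the first with AC132131.1, whose overlap was not determined); both were chosen after seeing the data. The median bound of 44.6-fold was 2.56 in P replicate 1, 17.8 in replicate 2 and 24.2 in replicate 3 alone, and 41.8 with the longest transcript. The CPE share of 5% was 10% in the longest 3′ UTR and 35% anywhere in the 3′ UTR. The median NP mean of 15.5 FPKM ranged from 14.8 to 17.1 with a library left out. No paired analysis was possible because no result comes from a test; depth ratios and comparisons of P with NP are given within replicates. P depth limits every zero, most in replicate 1.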

Other observations

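The 7 Gm gene models that met the same values but were left out by name were Gm11659, Gm12735, Gm12867, Gm13180, Gm15687, Gm15691 and Gm2301. Gm15687 was at 36.0, 48.1 and 2145 FPKM in NP and Gm11659 at 10.4, 7.11 and 202 FPKM, so replicate 3 was far above the others in both. Gm12735 was at 44.7, 15.1 and 18.4 FPKM. Among the partners looked up, Obfc2a, Tmem216, Nmnat3 and B9d2 were above 0 in at least 1 NP library and in no P library, with Tmem216 at 0.409, 2.15 and 7.34 FPKM in NP, and Cc2d2a was at 0 in all 6 libraries.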
